A study of Rattus norvegicus with 40 samples.

Results

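The cerebellum of rats was compared between a blast group and a sham group, 12 months after exposure, by RNA sequencing of bulk tissue. Of 40 libraries in the series, 10 came from the cerebellum, and they were chosen by their tissue label: 5 from blast-exposed rats (Cer4, Cer8, Cer22, Cer88 and Cer666) and 5 from rats given the sham procedure (Cer11, Cer13, Cer14, Cer15 and Cer33). The other 30 libraries came from hippocampus, amygdala and anterior cortex, with 5 blast and 5 sham libraries in each region. The labels give tissue and treatment, and they do not give the strain, the sex, the age of the rats, or the number and pressure of the blasts. They do not say whether each library is a separate animal, so p-values measure only the spread between these libraries, part of which may be technical. All levels are given in CPM, the counts of a gene scaled to the size of its library, and each difference is a log2 ratio (blast to sham) from edgeR with its standard error (SE, n = 5 blast and 5 sham libraries).

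The cerebellar cortex holds a dense layer of granule cells, whose axons excite Purkinje cells in the molecular layer, and Purkinje cells are its only output to the deep nuclei. Bergmann glia surround the Purkinje cell dendrites, the meninges follow the folia into the fissures, and the choroid plexus of the fourth ventricle lies against the underside. A block of cerebellum can therefore carry meningeal and choroid tissue, and the sources used here do not describe the dissection.

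The tissue label matched the markers. In sham cerebellum the granule cell receptor subunit gene Gabra6 had 1040 ± 37.7 CPM (SD, n = 5), and sham libraries of the other regions had at most 0.509 CPM on average. The Purkinje cell gene Pcp2 had 172 ± 20.4 CPM in sham cerebellum, and its mean was at most 0.110 CPM in the other regions. The forebrain kinase gene Camk2a stood at 44.1 ± 6.40 CPM in sham cerebellum, against means of 1853 to 2403 CPM elsewhere.

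The blast libraries held 12294151 to 15551825 counts and the sham libraries 11655408 to 15026682, with 18898 to 19255 genes counted at least once in blast and 18801 to 19094 in sham. Markers of neighbouring tissue varied between the libraries. The choroid plexus list, of which 15 of 25 genes were measured, summed to 2214 CPM in blast Cer8, 2877 CPM in blast Cer22 and 1297 CPM in sham Cer33, whereas the other 7 libraries had 59.4 to 156 CPM. Its transport protein gene Ttr was at 1697 CPM in blast Cer8, 2226 in blast Cer22 and 992 in sham Cer33, and no library had Ttr, Folr1 or Kl at 0. Genes of fibroblasts and meninges, 26 of 27 measured, summed to 858 to 1451 CPM in blast and 412 to 1058 CPM in sham. Sham Cer11 and sham Cer15 were the lowest, at 412 and 445 CPM, against 809 to 1058 CPM in the other 3 sham libraries. The defining markers Dcn, Lum, Slc6a13 and Col1a1 were above 0 in every library. Genes of ependyma and motile cilia, 18 of 26 measured, summed to 218 to 283 CPM in blast and 188 to 240 CPM in sham.

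**Figure D1:**
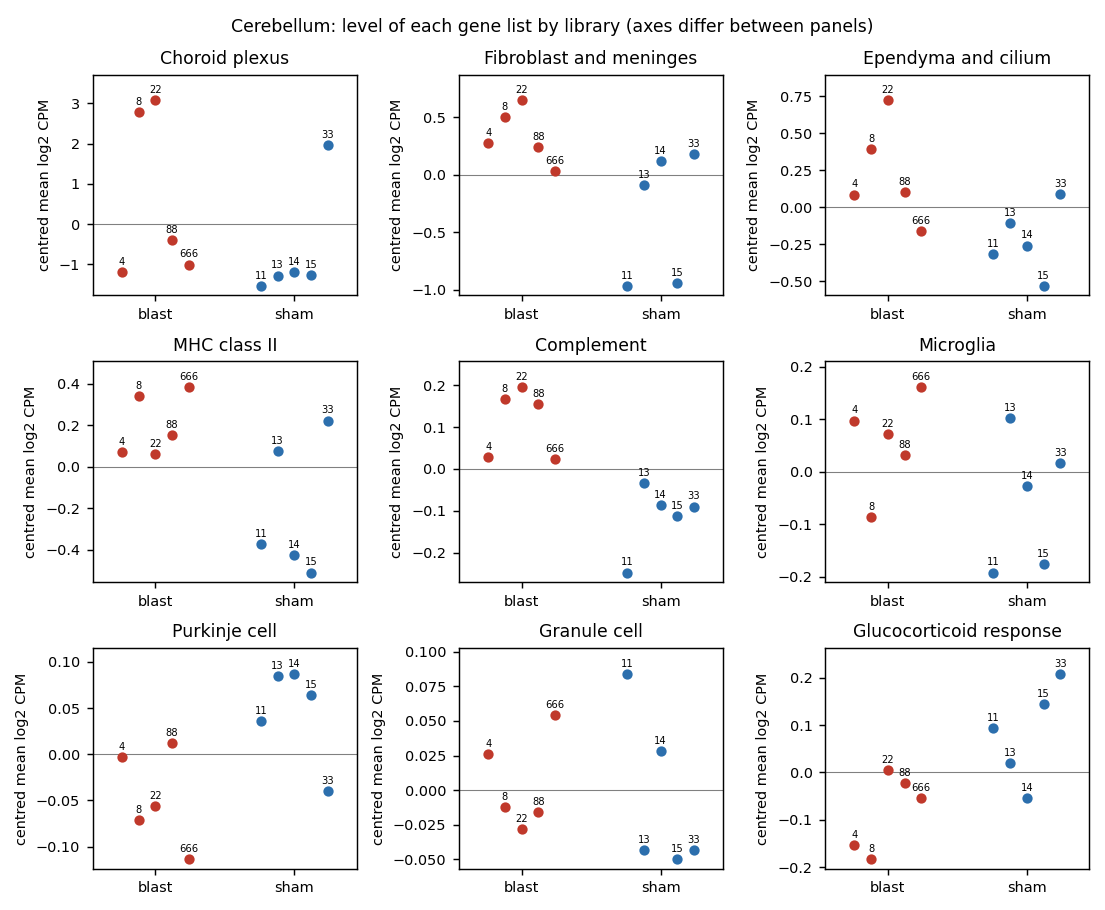
Each panel plots 1 gene list, and the vertical axis gives the average log2 CPM of the list minus its average over the 10 libraries (1 point per library with its number, axes differ between panels). Blast Cer8, blast Cer22 and sham Cer33 stand at 1.97 to 3.08 for the choroid plexus list, sham Cer11 and sham Cer15 lie near -0.96 and -0.94 for fibroblasts and meninges, and the complement panel has all 5 blast libraries above all 5 sham libraries.

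No gene was called between blast and sham. edgeR tested 14769 of 22831 genes and called 0% at an adjusted p under 0.05 (smallest adjusted p = 0.564). At an unadjusted p under 0.05, 415 genes were higher in blast (2.81% of the genes tested) and 268 were lower (1.81%), 683 in all, and 5% of the genes tested would be 738. These percentages are the background for the list counts below. Members of a list can vary together across libraries, so such counts are not independent. All 5 blast libraries lay above all 5 sham libraries for 62 genes (0.420%), and below them for 46 genes (0.311%). The median fold change over all genes was 0.00 and 51.1% of genes were higher. DESeq2 called 5 genes on the same counts, which were Aurkb, Mmp14, Hnrnpab, Tril and AABR07037009.1, and limma voom called 0. AABR07037009.1, outside the naming rule and given after its values were seen, averaged 0.512 ± 0.415 CPM in blast and 3.38 ± 1.97 CPM in sham (SD, n = 5 each), and the groups overlapped. The authors' deposited table lists 22757 adjusted p-values, of which 2 passed 0.05, for Aurkb (log2 fold change 0.31, adjusted p = 0.00442) and Mmp14 (0.31, adjusted p = 0.00819). These fold changes may be on another scale than the edgeR ratios of the same genes, 1.18 and 0.94, and are not compared with them. The genes below are those with a gene name and the smallest p in each direction, so clone-named, LOC and similar entries are passed over, and since none passed in edgeR their values are given as a description.

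The 15 leading genes on the higher side were taken by p, and 14 of them had every blast library above every sham library. Choosing genes by the smallest p favours such separation, which over all genes was found for 62 (0.420%). The 15 include genes of the mitotic spindle, a matrix protease, class II antigen presentation genes and meningeal genes, and no adjusted p was below 0.564. Aurkb (ENSRNOG00000005659, chromosome 10, 55626741 to 55634991), which encodes the kinase of the chromosomal passenger complex that acts in mitosis, had 5.98, 5.95, 8.86, 6.37 and 4.51 CPM in blast libraries Cer4, Cer8, Cer22, Cer88 and Cer666, against 2.54, 3.87, 2.56, 2.05 and 2.90 CPM in sham libraries Cer11, Cer13, Cer14, Cer15 and Cer33. The lowest blast value, in blast Cer666, was still above the highest sham value, in sham Cer13. The difference was 1.18 ± 0.21 on the log2 scale (adjusted p = 0.564 in edgeR, 0.00228 in DESeq2). Without blast Cer8, blast Cer22 and sham Cer33 it was 1.03, and with the fibroblast and meninges level as a covariate 0.82. That level itself differed between the groups, averaging 3.60 ± 0.24 log2 CPM in blast and 2.92 ± 0.57 in sham (SD). Here and below, the covariate therefore takes up part of any blast difference that follows it. Gene positions here and below are those of the authors' table, and the sources used here do not name its genome build.

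Mmp14 (ENSRNOG00000010947, chromosome 15, 33074441 to 33083655), the gene of a membrane-bound matrix metalloproteinase, had 16.2, 23.5, 16.9, 11.1 and 18.5 CPM in blast libraries Cer4, Cer8, Cer22, Cer88 and Cer666, against 9.34, 9.41, 10.7, 6.02 and 9.56 CPM in sham libraries Cer11, Cer13, Cer14, Cer15 and Cer33. Blast Cer88 lay just above sham Cer14, and the other 4 blast libraries were well clear of all sham libraries. The fold change was 0.94 ± 0.19 (adjusted p = 0.764 in edgeR, 0.00325 in DESeq2), 0.78 without blast Cer8, blast Cer22 and sham Cer33, and 0.70 with the fibroblast and meninges covariate. Ikbke, which encodes a kinase that acts upstream of interferon regulatory factors, had 3.29, 3.39, 3.42, 3.35 and 4.67 CPM in blast, against 1.92, 2.07, 1.83, 1.98 and 2.56 CPM in sham, in the same library order. The groups did not overlap, and its fold change of 0.80 ± 0.17 was 0.94 without the 3 choroid-rich libraries and 0.79 with the covariate. Rarres2, the gene of the chemoattractant chemerin, had 5.25 to 6.50 CPM in blast and 2.68 to 4.87 CPM in sham (0.78 ± 0.17). Hspb1, a small heat shock protein gene, had 6.64 to 9.03 CPM in blast and 4.39 to 5.78 CPM in sham (0.57 ± 0.14).

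The remaining genes of this set were of mixed function. Misp, which encodes a protein that positions the mitotic spindle, stood at 0.98 ± 0.21, and Nek11, a NIMA-family kinase gene, at 1.22 ± 0.27 with 1.05 to 1.87 CPM in blast and 0.412 to 0.805 CPM in sham. Ddo, the gene of the enzyme that degrades D-aspartate, stood at 0.83 ± 0.19. Rgs22, a regulator of G protein signalling gene, stood at 0.87 ± 0.20, and was 0.45 with the fibroblast and meninges covariate. Cavin1, which encodes a coat protein of caveolae, had 40.1 to 49.4 CPM in blast and 28.4 to 39.8 CPM in sham (0.36 ± 0.09). Ifitm3, an interferon-induced membrane protein gene, was the exception to the separation, since blast Cer4 at 5.72 CPM lay below sham Cer11 at 5.98 CPM (0.67 ± 0.17).

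**Figure D2:**
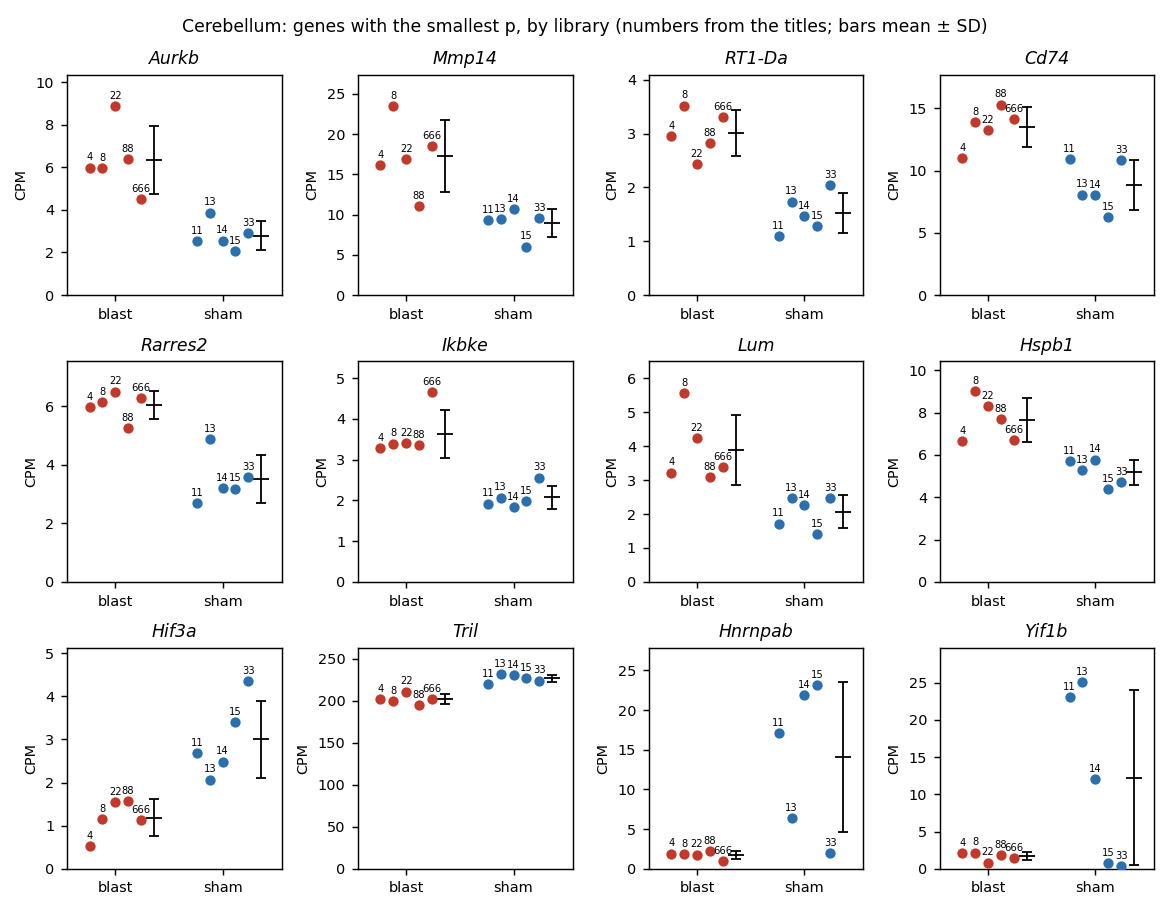
CPM of 12 of the leading genes in each library, with blast left of sham, 1 point per library with its title number, and the mean with SD as a bar. Aurkb, Mmp14, RT1-Da, Cd74, Rarres2, Ikbke, Lum and Hspb1 have all blast libraries above all sham libraries, Hif3a and Tril have them below, and Hnrnpab and Yif1b are high in 4 and 3 sham libraries and low in the rest.

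Other proliferation genes did not share the level of Aurkb. Of 15 measured of 22, with Aurkb itself among them, 10 were higher and 5 lower in blast. The median was 0.08 against 0.00 over all genes. At an unadjusted p under 0.05, 2 were higher, 1 of them Aurkb, and 1 was lower. Plk1, a mitotic kinase gene, stood at 0.47 ± 0.21, and Cdc20, the activator of the anaphase-promoting complex, at 0.46 ± 0.23. Asf1b, a histone chaperone gene, stood at -0.94 ± 0.40, and the replication clamp gene Pcna at 0.03 ± 0.06 with 34.5 to 41.0 CPM in blast and 35.0 to 40.2 CPM in sham.

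Class II molecules present peptides from outside the cell to helper T cells, and in brain they are carried mainly by microglia and by macrophages of the borders. Their genes share a promoter module in which an X box is bound by the RFX complex and a Y box by NF-Y, and both recruit the co-activator CIITA. The promoters of the 3 genes with the smallest p on the class II list are shown, since class II genes share this module. They run from 250 bases before to 50 bases after the gene start, come from RefSeq (build GRCr8) and read 5′ to 3′ on the gene's strand. RT1-Da, the class II alpha chain gene, is at chr20:4515165-4515464 on the plus strand, RT1-Db1, a beta chain gene, at chr20:4560113-4560412 on the minus strand, and Cd74, the gene of the invariant chain, at chr18:56526956-56527255 on the plus strand. All 3 genes had an entry. The authors' table, on a build that is not named, places RT1-Da on the minus and RT1-Db1 on the plus strand, opposite to RefSeq, and its coordinates are not used for these sequences. Capitals mark the X box letters TAGCAAC and the Y box letters CTGATTGG, searched on both strands.
RT1-Da: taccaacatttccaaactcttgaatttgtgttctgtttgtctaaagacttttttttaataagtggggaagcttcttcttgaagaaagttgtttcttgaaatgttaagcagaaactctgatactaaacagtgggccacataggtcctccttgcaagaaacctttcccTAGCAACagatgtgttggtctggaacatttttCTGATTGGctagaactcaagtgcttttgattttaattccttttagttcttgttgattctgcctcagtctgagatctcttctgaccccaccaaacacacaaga
RT1-Db1: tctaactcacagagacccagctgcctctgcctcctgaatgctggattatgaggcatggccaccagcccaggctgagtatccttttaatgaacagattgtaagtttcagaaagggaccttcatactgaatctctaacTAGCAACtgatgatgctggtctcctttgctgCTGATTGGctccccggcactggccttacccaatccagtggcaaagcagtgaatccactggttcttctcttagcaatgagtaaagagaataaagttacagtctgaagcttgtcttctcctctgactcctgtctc
Cd74: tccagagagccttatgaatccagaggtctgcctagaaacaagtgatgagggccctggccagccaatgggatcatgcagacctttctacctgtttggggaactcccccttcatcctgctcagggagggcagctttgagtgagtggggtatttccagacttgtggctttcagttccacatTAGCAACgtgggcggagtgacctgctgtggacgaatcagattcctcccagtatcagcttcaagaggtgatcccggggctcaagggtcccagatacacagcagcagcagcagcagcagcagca
The X box letters begin 84 bases before the gene start in RT1-Da, 114 in RT1-Db1 and 72 in Cd74, and the Y box letters 52 bases before it in RT1-Da and 83 in RT1-Db1, all on the gene's strand and without overlap. The exact Y box letters are not in this window of Cd74. Of 33469 rat promoters of this length, 3.58% held the X box letters, 3.50% the Y box letters and 0.0896% both. The letters were taken after the 3 sequences had been read, so these shares describe how common they are and test nothing.

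RT1-Da had 2.96, 3.52, 2.44, 2.82 and 3.30 CPM in blast libraries Cer4, Cer8, Cer22, Cer88 and Cer666, against 1.10, 1.74, 1.46, 1.28 and 2.05 CPM in sham libraries Cer11, Cer13, Cer14, Cer15 and Cer33. The groups did not overlap, and the lowest blast library was blast Cer22. Cd74 had 10.98, 13.9, 13.3, 15.3 and 14.2 CPM in blast, against 10.9, 8.07, 8.05, 6.23 and 10.8 CPM in sham. Here blast Cer4 and sham Cer11 were nearly equal, so the separation rested on a narrow gap. RT1-Db1 had 0.724 to 1.30 CPM in blast and 0.293 to 0.768 CPM in sham, and overlapped between blast Cer666 and sham Cer33. Without blast Cer8, blast Cer22 and sham Cer33 the fold changes of RT1-Da, Cd74 and RT1-Db1 were 1.11, 0.69 and 1.36, and with the fibroblast and meninges covariate 0.74, 0.58 and 0.94. The part of carry-over in these values was not tested.

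The class II list counted 7 of 9 measured genes higher in blast, by a median of 0.21. At an unadjusted p under 0.05, 3 of them (33.3%) were higher, against 2.81% of all genes. Without blast Cer8, blast Cer22 and sham Cer33 the median was 0.46 with 9 of 9 higher, and without sham Cer11 and sham Cer15 it was 0.14 with 5 of 9 higher. Ctss, the protease that trims the invariant chain, stood at -0.01 ± 0.07, and Rfx5, a subunit of the X box factor, at -0.06 ± 0.07. Among the class I list, 15 of 21 measured were higher by a median of 0.13, with Psmb10, a subunit of the immunoproteasome, at 0.19 ± 0.09 and Tap1, the peptide transporter, at 0.37 ± 0.19. B2m, the class I light chain gene, had 249 to 307 CPM in blast and 225 to 297 CPM in sham (0.13 ± 0.08). The microglia list was 17 of 24 higher by a median of 0.11 with none at an unadjusted p under 0.05, and its receptor gene Csf1r stood at 0.13 ± 0.07. Its median was 0.01 with the fibroblast and meninges covariate and 0.00 without sham Cer11 and sham Cer15. Of the defining microglia markers, Cx3cr1 had 7.48 to 12.0 CPM in blast and 7.19 to 11.2 CPM in sham. P2ry12 had 7.10 to 9.45 CPM in blast and 7.31 to 12.7 CPM in sham. Tmem119 had 3.71 to 6.34 CPM in blast and 3.17 to 6.84 CPM in sham. The groups overlapped for each of these markers. In bulk tissue, more cells of a type and more RNA per cell cannot be told apart.

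Macrophages of the brain borders were measured by 7 of 14 genes, 5 of them higher. F13a1, the coagulation factor XIII A chain gene of these cells, had 1.77, 1.92, 1.54, 2.10 and 2.98 CPM in blast libraries Cer4, Cer8, Cer22, Cer88 and Cer666, against 0.893, 1.33, 1.76, 0.708 and 0.598 CPM in sham libraries Cer11, Cer13, Cer14, Cer15 and Cer33. The groups overlapped between blast Cer22 and sham Cer14. Mrc1, the mannose receptor gene, stood at 0.68 ± 0.26, with its lowest values in sham Cer11 and sham Cer15 (1.37 and 1.35 CPM), the 2 libraries that were also lowest for fibroblast and meninges genes. With the covariate the median of the 7 was -0.02, against 0.24 without it. As the covariate was itself higher in blast, this fit cannot tell meningeal tissue from a blast difference that follows it. Lymphocyte genes were near the floor: 7 of 27 were measured, 3 of them higher, and their sum was 13.2 to 16.0 CPM in blast libraries and at most 15.9 CPM in sham. Cd3e, the T cell receptor chain gene, had 0 to 0.241 CPM in blast and 0 to 0.436 CPM in sham. Of 12 neutrophil genes 1 was measured, and of the interferon response list 17 of 26 were higher by a median of 0.06, among them Bst2, the tetherin gene, at 0.89 ± 0.23 and Ifit3 at -0.59 ± 0.35. With the fibroblast and meninges covariate that median was 0.19.

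Complement genes were 19 of 22 higher by a median of 0.15. At an unadjusted p under 0.05, 4 of them (18.2%) were higher, against 2.81% of all genes. Serping1, the C1 inhibitor gene, had 20.2, 19.7, 19.6, 16.2 and 18.4 CPM in blast libraries Cer4, Cer8, Cer22, Cer88 and Cer666, against 8.73, 14.5, 11.2, 14.2 and 15.6 CPM in sham libraries Cer11, Cer13, Cer14, Cer15 and Cer33. All blast libraries were above all sham libraries, by a small gap between blast Cer88 and sham Cer33. Itgb2, the beta chain gene of complement receptor 3, had 5.06 to 6.02 CPM in blast and 3.90 to 4.95 CPM in sham (0.41 ± 0.13), again with no overlap. The mean level of the list did not overlap between the groups, with centred values of 0.02 to 0.20 in blast and -0.25 to -0.03 in sham. Its summed level did overlap, at 726 to 920 CPM in blast and 692 to 804 CPM in sham. Complement was 1 of 45 lists examined. The list median was 0.12 without blast Cer8, blast Cer22 and sham Cer33, 0.13 with the fibroblast and meninges covariate and 0.13 without sham Cer11 and sham Cer15, while C7, a terminal pathway gene that meningeal fibroblasts also express, was 0.63 ± 0.28 and -0.03 with the covariate. Of the innate signalling list 12 of 17 were higher by a median of 0.13. Its member Ptgs2, the inducible cyclooxygenase, had 5.72 to 11.1 CPM in blast and 5.12 to 5.91 CPM in sham, and overlapped only through blast Cer4.

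Genes of fibroblasts and meninges were 25 of 26 higher in blast by a median of 0.63. At an unadjusted p under 0.05, 13 of them (50%) were higher, against 2.81% of all genes. Lum, the gene of the proteoglycan lumican, had 3.22, 5.57, 4.23, 3.09 and 3.38 CPM in blast libraries Cer4, Cer8, Cer22, Cer88 and Cer666, against 1.72, 2.47, 2.27, 1.42 and 2.48 CPM in sham libraries Cer11, Cer13, Cer14, Cer15 and Cer33. The groups did not overlap, and without sham Cer11 and sham Cer15, its lowest sham libraries, the fold change was 0.70. Slc6a13, a GABA and taurine transporter gene of the leptomeninges, and Tbx18, a transcription factor gene of mural and meningeal cells, also separated the groups (0.89 ± 0.23 and 0.75 ± 0.19). Ptgds, the prostaglandin D synthase of the meninges, had 630, 611, 825, 594 and 502 CPM in blast, against 183, 499, 410, 221 and 619 CPM in sham. The lowest values were those of sham Cer11 and sham Cer15, and sham Cer33 lay inside the blast range.

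The size of this difference depended on sham Cer11 and sham Cer15. Without them 24 of 26 genes were higher by a median of 0.29. They were the lowest sham libraries of this list, so leaving them out makes the difference smaller by design. Without blast Cer8, blast Cer22 and sham Cer33, 25 of 26 were higher by 0.61. With the level of the list itself as a covariate 11 of 26 were higher and the median was -0.03, as that fit removes the level by design. Igf2, a growth factor gene of meninges and choroid plexus, was 1.13 ± 0.49, and -0.26 with the covariate. The part of meningeal carry-over in these values was not tested.

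Matrix and vessel genes had smaller values. Of 35 collagen and matrix genes 26 stood higher, their median being 0.17, 6 of them at an unadjusted p under 0.05, and with the covariate 15 were higher and the median was -0.04. Without sham Cer11 and sham Cer15 the median was 0.02. Loxl1, which cross-links elastin, stood at 1.03 ± 0.34, and Eln, elastin itself, at 0.45 ± 0.17 with 3.06 to 5.29 CPM in blast and 2.74 to 3.75 CPM in sham. Endothelial genes were 17 of 22 higher by 0.07, led by Sox17, an arterial transcription factor gene, with 7.81 to 11.3 CPM in blast and 6.73 to 7.74 CPM in sham (0.41 ± 0.12, no overlap). The smooth muscle actin gene Acta2 led the mural cell list, 12 of 17 higher by 0.09, with at least 6.91 CPM in every blast library and 2.98 to 6.74 CPM in sham (0.58 ± 0.19, no overlap).

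Genes of ependyma and motile cilia were 17 of 18 higher by a median of 0.46. At an unadjusted p under 0.05, 8 of them (44.4%) were higher, against 2.81% of all genes. Cfap65, a gene of the ciliary axoneme, had 3.29, 6.15, 9.35, 4.20 and 2.25 CPM in blast libraries Cer4, Cer8, Cer22, Cer88 and Cer666, against 1.44, 2.87, 2.56, 1.42 and 3.07 CPM in sham libraries Cer11, Cer13, Cer14, Cer15 and Cer33. The 2 highest values were those of blast Cer8 and blast Cer22, which were also rich in choroid plexus, and blast Cer666 lay inside the sham range. Without blast Cer8, blast Cer22 and sham Cer33 its fold change was 0.65 in place of 1.15 ± 0.36, and 15 of 18 genes of the list were higher by 0.30. The choroid plexus list itself was 15 of 15 higher by 1.78 with none at an unadjusted p under 0.05, and 11 of 14 by 0.51 without those 3 libraries. The part of choroid plexus carry-over in the cilium genes was not tested.

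**Figure D3:**
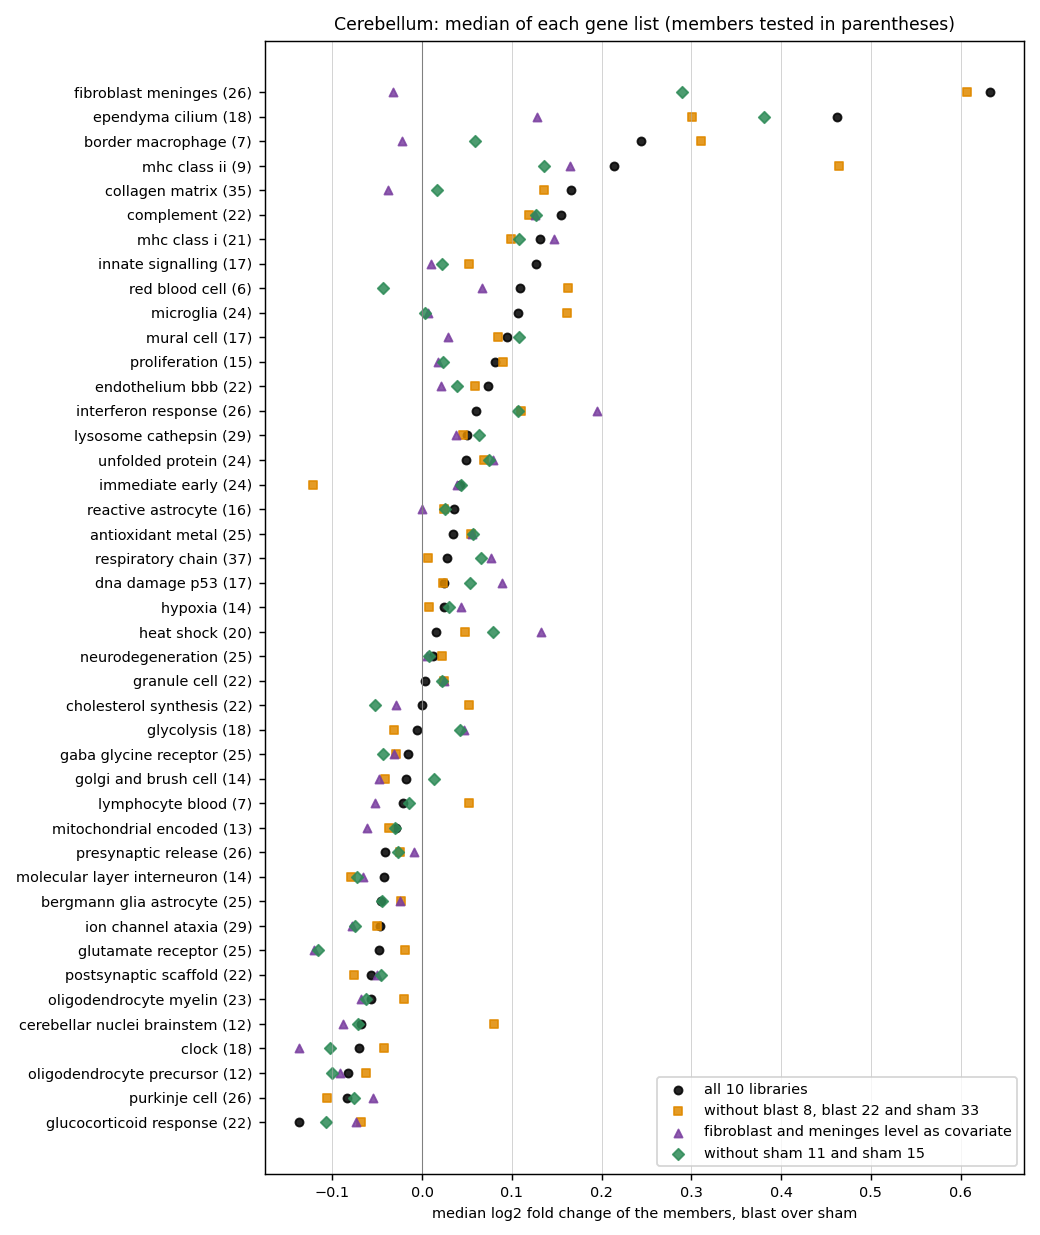
Median log2 fold change of blast over sham for each gene list with at least 5 measured genes, choroid plexus left out, for all 10 libraries (circles), without blast Cer8, blast Cer22 and sham Cer33 (squares), with the fibroblast and meninges level as a covariate (triangles), and without sham Cer11 and sham Cer15 (diamonds). The fibroblast and meninges list stands at 0.63 with all libraries, 0.61 without the choroid-rich ones, 0.29 without sham Cer11 and sham Cer15 and -0.03 with the covariate, while the Purkinje cell list stays between -0.11 and -0.05.

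Purkinje cell genes were lower in blast by small amounts. Of 26 genes measured of 26, 24 were lower and 2 higher, by a median of -0.08 against 0.00 over all genes. At an unadjusted p under 0.05, 6 of them (23.1%) were lower, against 1.81% of all genes. Skor2 (ENSRNOG00000018006, chromosome 18, 73157973 to 73193377), a co-repressor gene needed for Purkinje cell differentiation in mouse, had 17.2, 15.7, 14.2, 18.9 and 13.8 CPM in blast libraries Cer4, Cer8, Cer22, Cer88 and Cer666, against 22.6, 20.7, 22.8, 18.6 and 17.4 CPM in sham libraries Cer11, Cer13, Cer14, Cer15 and Cer33. Blast Cer88 lay above sham Cer15 and sham Cer33, and the other blast libraries below all sham libraries. The fold change was -0.35 ± 0.11 (adjusted p = 0.960 in edgeR), and -0.34 without blast Cer8, blast Cer22 and sham Cer33. Itpr1, the calcium release channel of the Purkinje cell, had 2595 to 2813 CPM in blast and 2586 to 3304 CPM in sham (-0.11 ± 0.06), and the zebrin gene Aldoc stood at -0.02 ± 0.07.

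Of the defining Purkinje markers, Calb1 had 582 to 642 CPM in blast and 624 to 711 CPM in sham, Car8 613 to 680 CPM in blast and 660 to 748 CPM in sham, and Pcp2 161 to 186 CPM in blast and 141 to 196 CPM in sham. The groups overlapped for all 3. The summed level of the list was 9678, 9334, 9216, 9792 and 9043 CPM in blast libraries Cer4, Cer8, Cer22, Cer88 and Cer666, against 9961, 10071, 10193, 10048 and 9483 CPM in sham libraries Cer11, Cer13, Cer14, Cer15 and Cer33. Sham Cer33 was the one sham library inside the blast range, and the lowest of all was blast Cer666. The part of neighbouring tissue in these values was not tested. Without blast Cer8, blast Cer22 and sham Cer33 again 24 of 26 were lower, by -0.11, with 2 at an unadjusted p under 0.05. With the fibroblast and meninges covariate 20 of 26 were lower and the median was -0.05, and without sham Cer11 and sham Cer15 19 of 26 by -0.08. Of granule cell genes 14 of 22 were higher by a median of 0.00, with none at an unadjusted p under 0.05, and Gabra6 had 995 to 1065 CPM in blast and 1007 to 1092 CPM in sham (-0.02 ± 0.04).

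**Figure D4:**
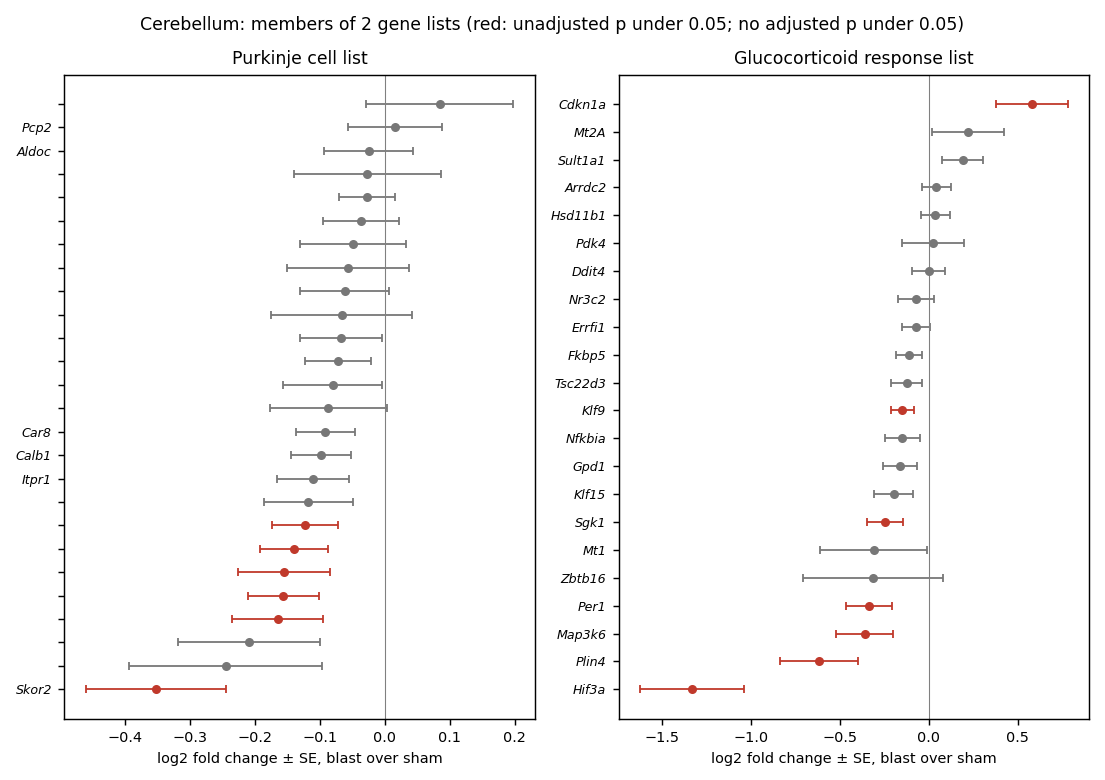
Log2 fold change of blast over sham with SE for every measured member of the Purkinje cell list (left, with names for the genes described in the text) and the glucocorticoid response list (right), red where the unadjusted p was under 0.05. Of the Purkinje genes 24 of 26 lie below 0, with Skor2 lowest at -0.35, and of the glucocorticoid genes 16 of 22 lie below 0, with Hif3a lowest at -1.33 and Cdkn1a highest at 0.58.

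Receptors and synapses followed with values near 0. Of 25 glutamate receptor genes 17 were lower by a median of -0.05, and 3 of them were lower at an unadjusted p under 0.05, among them the AMPA receptor genes Gria3 (-0.16 ± 0.05) and Gria1 (-0.19 ± 0.07). Gria3 had 109 to 111 CPM in blast and 109 to 131 CPM in sham, so the blast libraries were nearly equal while the sham libraries spread. Grm2, a presynaptic metabotropic receptor gene of Golgi cells, went the other way with 26.2, 12.9, 33.8, 26.1 and 23.6 CPM in blast, against 27.9, 13.1, 6.36, 14.9 and 7.51 CPM in sham, and the groups overlapped widely (0.80 ± 0.34). Postsynaptic scaffold genes were 20 of 22 lower by -0.06 with none at an unadjusted p under 0.05, and the scaffold gene Dlg3 stood at -0.09 ± 0.05. Presynaptic release genes were 17 of 26 lower by -0.04 with none at an unadjusted p under 0.05, and the vesicle protein gene Sv2a had 553 to 557 CPM in blast and 561 to 584 CPM in sham (-0.04 ± 0.03), with no overlap. Ion channel and ataxia genes were 21 of 29 lower by -0.05, with the sodium channel subunit gene Scn4b at -0.12 ± 0.05 and Kcna6 at -0.19 ± 0.08. GABA and glycine receptor genes were 14 of 25 lower by -0.02. Sham Cer14 had the highest summed level of the glutamate receptor, scaffold and ion channel lists, at 5265, 6657 and 11270 CPM. Without it the medians of these lists were -0.01, -0.03 and -0.03, and its part in them was not tested further. The presynaptic median was then -0.02, and the Purkinje cell median -0.08 with 25 of 26 lower.

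Glia outside the immune lists differed little. Myelin genes were 18 of 23 lower by -0.06 with none at an unadjusted p under 0.05, and Mbp, myelin basic protein, stood at -0.06 ± 0.07. Oligodendrocyte precursor genes were 10 of 12 lower by -0.08, with Vcan, the proteoglycan versican, at -0.16 ± 0.06. Of Bergmann glia and astrocyte genes 17 of 25 were lower by -0.05, with Gdf10 at -0.19 ± 0.09 and Fabp7 at 0.30 ± 0.13 on opposite sides. Gfap, the intermediate filament gene that marks reactive astrocytes, had 726 to 843 CPM in blast and 679 to 912 CPM in sham (0.01 ± 0.08). The neurofilament genes Nefm and Nefh stood at -0.22 ± 0.08 and -0.20 ± 0.09, with blast Cer88 the highest blast library for both.

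Of the 15 named genes with the smallest p among those lower in blast, 8 had every blast library below every sham library. Choosing by p favours such separation here too, and over all genes it was found for 46 (0.311%). Hif3a (ENSRNOG00000017198, chromosome 1, 78976318 to 78997869), an oxygen-regulated transcription factor gene that glucocorticoids also induce, had 0.526, 1.15, 1.54, 1.58 and 1.13 CPM in blast libraries Cer4, Cer8, Cer22, Cer88 and Cer666, against 2.68, 2.07, 2.49, 3.40 and 4.35 CPM in sham libraries Cer11, Cer13, Cer14, Cer15 and Cer33. The groups did not overlap, and the highest blast library was well below the lowest sham library, sham Cer13. The fold change was -1.33 ± 0.29 (adjusted p = 0.764 in edgeR), -1.30 without blast Cer8, blast Cer22 and sham Cer33 and -1.42 with the fibroblast and meninges covariate. In the model of all 40 libraries Hif3a was -1.34 in the cerebellum. Its values elsewhere were -1.72 in anterior cortex, -1.14 in amygdala and -0.98 in hippocampus. Its difference between cerebellum and the mean of the other regions was -0.06 ± 0.43 (adjusted p = 1.00 in edgeR). Most title numbers recur across the regions, so libraries of different regions may come from the same rats and not be separate observations.

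Tril (ENSRNOG00000026941, chromosome 4, 83967696 to 83972540), the gene of a Toll-like receptor 4 partner expressed by astrocytes, had 202, 199, 211, 195 and 202 CPM in blast libraries Cer4, Cer8, Cer22, Cer88 and Cer666, against 220, 232, 230, 227 and 224 CPM in sham libraries Cer11, Cer13, Cer14, Cer15 and Cer33. The difference was small, -0.17 ± 0.04, but the libraries within each group lay close together and the groups did not overlap (adjusted p = 0.764 in edgeR, 0.0188 in DESeq2). Tmem151a, a membrane protein gene, had 0.329 to 0.657 CPM in blast and 0.893 to 1.49 CPM in sham (-1.21 ± 0.28). Crebbp, the histone acetyltransferase CBP, had 83.0 to 109 CPM in blast and 113 to 133 CPM in sham (-0.31 ± 0.08). Ccdc88c, a Wnt pathway gene, Gpr52, an orphan receptor gene, and Ephb1, an ephrin receptor gene, also separated the groups at -0.25 ± 0.06, -0.72 ± 0.21 and -0.19 ± 0.06. The authors' table labels this Gpr52 entry a pseudogene.

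The glucocorticoid response list, in which Hif3a stands, was 16 of 22 lower in blast by a median of -0.14. At an unadjusted p under 0.05, 6 of its genes (27.3%) were lower and 1 was higher. Over all genes 1.81% were lower and 2.81% higher. Plin4, a lipid droplet protein gene, had 1.15 to 1.93 CPM in blast and 2.002 to 3.41 CPM in sham (-0.62 ± 0.22), with no overlap. Per1, a clock gene with a glucocorticoid response element, had 77.6, 62.2, 96.3, 92.3 and 121 CPM in blast libraries Cer4, Cer8, Cer22, Cer88 and Cer666, against 117, 116, 104, 118 and 112 CPM in sham libraries Cer11, Cer13, Cer14, Cer15 and Cer33. The sham libraries were close together, and blast Cer666 was the highest of all 10. Cdkn1a, the cell cycle inhibitor p21, was higher in blast at 0.58 ± 0.20. The median of the list was -0.07 without blast Cer8, blast Cer22 and sham Cer33, where 2 genes were lower at an unadjusted p under 0.05, and -0.07 with the fibroblast and meninges covariate. Clock genes were 12 of 18 lower by -0.07, with Per2 at -0.37 ± 0.21 and Npas2 at 0.21 ± 0.10. The sources used here do not give the time of day of tissue collection, and its part in these values was not tested.

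Some of the largest fold changes came from genes that were high in some libraries and near the floor in others. Hnrnpab (ENSRNOG00000003645, chromosome 10, 34955716 to 34961608), an RNA-binding protein gene, had 1.91, 1.86, 1.79, 2.23 and 0.966 CPM in blast libraries Cer4, Cer8, Cer22, Cer88 and Cer666, against 17.1, 6.41, 21.9, 23.2 and 1.96 CPM in sham libraries Cer11, Cer13, Cer14, Cer15 and Cer33. All blast libraries and sham Cer33 were low, and the other 4 sham libraries were high, which gave -3.00 ± 0.53 (adjusted p = 0.564 in edgeR, 0.00325 in DESeq2, and 0.00801 in edgeR without sham Cer33). In the hippocampus Hnrnpab was high in blast Hip_4 and Hip_666 (24.6 and 27.3 CPM) and low in sham Hip_15 and Hip_33 (1.67 and 1.69 CPM). Yif1b, a Golgi trafficking gene, had 0.813 to 2.18 CPM in blast, against 23.0, 25.1, 12.0, 0.779 and 0.341 CPM in sham libraries Cer11, Cer13, Cer14, Cer15 and Cer33 (-2.85 ± 0.83). An identifier of the ribosomal protein gene Rpl8 (ENSRNOG00000048456) stood at 3.88 to 5.85 CPM in blast and had 109 CPM in sham Cer11 against 5.24 to 8.54 CPM in the other sham libraries, and its fold change of -2.48 ± 0.84 was -0.35 without sham Cer11. Whether reads of these genes were split with near-identical copies cannot be read from the table, so their values are uncertain.

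Stress and energy lists had medians near 0. Heat shock genes were 14 of 20 higher by 0.02, with Hspb8, a small heat shock protein gene, at 0.37 ± 0.12 and Hspa8, the constitutive Hsc70, at -0.01 ± 0.09. Unfolded protein response genes were 17 of 24 higher by 0.05, with the disulfide isomerase gene Pdia6 at 0.13 ± 0.06. Respiratory chain genes were 27 of 37 higher by 0.03 and mitochondrially encoded genes 7 of 13 lower by -0.03, with none at an unadjusted p under 0.05 in either list. Lysosome and cathepsin genes were 22 of 29 higher by 0.05, with Ctsz at 0.27 ± 0.10 and Ctsc at 0.92 ± 0.36. Ctsc was highest in blast Cer22, blast Cer8 and sham Cer33, at 8.94, 6.79 and 4.61 CPM, the libraries rich in choroid plexus. Immediate early genes were 14 of 24 higher by 0.04, and 7 of 24 by -0.12 without blast Cer8, blast Cer22 and sham Cer33.

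The blast difference of the cerebellum was set against the mean blast difference of the other 3 regions in 1 model of 40 libraries. Over 16378 genes edgeR called 0% (smallest adjusted p = 1.00), and 297 had an unadjusted p under 0.05, where 5% of the genes would be 819. Lum had one of the smallest p-values, at 1.01 ± 0.27: it was 0.90 in the cerebellum, against 0.00 in hippocampus, -0.10 in amygdala and -0.24 in anterior cortex. Ikbke differed by 0.76 ± 0.22, with 0.79 in the cerebellum and -0.06 to 0.10 in the other regions, and Efnb3, an ephrin ligand gene, by 0.60 ± 0.17. Rpl8 had the smallest p at -3.64 ± 0.90, and it rested on single libraries, with 110 CPM in sham Cer11 and 95.7 CPM in blast Hip_88 on the scale over all genes of each table. Aurkb was 1.17 in the cerebellum, against 0.39 in hippocampus, -0.17 in amygdala and -0.42 in anterior cortex (difference 1.23 ± 0.48), and Mmp14 was 0.92, 1.08, 0.24 and -0.08 in the same order (0.51 ± 0.45). None of these differences passed, so no gene was shown to be particular to the cerebellum. The 297 genes at an unadjusted p under 0.05 were fewer than 819, so the lack of calls does not show that the regions were alike. The 4 tables name genes and lengths differently for part of the identifiers, with 600 lengths that differ between the cerebellum and hippocampus tables, so levels set side by side across regions are descriptive.

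**Figure D5:**
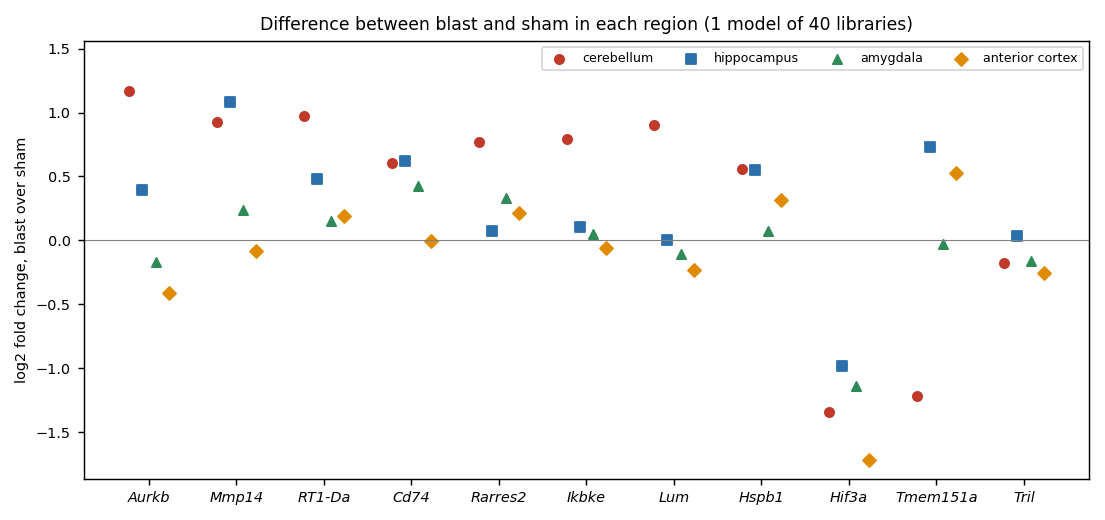
Log2 fold change of blast over sham for 11 leading cerebellum genes in each of the 4 regions, from 1 model of 40 libraries, with 1 marker per region and no error bars. Lum and Ikbke lie near 0 outside the cerebellum, Hif3a lies between -1.72 and -0.98 in all 4 regions, and Mmp14 is as high in the hippocampus (1.08) as in the cerebellum (0.92). Libraries of different regions may come from the same rats.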

How the data were processed

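Bulk RNA of rat cerebellum was measured in 5 blast and 5 sham libraries, and the other 3 regions entered the test between regions. Raw read counts per gene are those of the authors' deposited tables, per the file headers, with 11655408 to 15551825 counts per cerebellum library. The deposited tables also hold a normalised signal, which was each count divided by a constant of its library, and FPKM values, per the file headers, and neither was used. The log2 fold changes and p-values of the authors' deposited table were used only where it is named. CASAVA is named per the submitters' processing notes, and no source used here names the aligner, counter, annotation or genome build. Gene names were taken from the hippocampus table by identifier where present, and 4045 of 21649 shared identifiers had another name in the cerebellum table.

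Counts were tested with edgeR 4.0.16 in R 4.3.3 (filterByExpr, TMM, quasi-likelihood F test, two-sided, Benjamini-Hochberg adjustment over 14769 genes, threshold 0.05). The regions were compared in 1 model of 8 group means. DESeq2 1.42.0 and limma 3.58.1 were alternatives, with other filters and scalings, covariates for choroid plexus and meningeal levels, and each library left out in turn. Leaving out sham Cer11 and sham Cer15 was chosen after seeing the data, as they were lowest for fibroblast and meninges genes. For that list, and for lists that follow its level, this makes a difference higher in blast smaller by design. The genes named were the 15 with a gene name (no clone, LOC or similar entry) and the smallest p in each direction, up to 4 members of each list with the smallest p and up to 2 with the highest level, and 5 genes in each direction of the region test. Defining cell type markers were also given, and some genes under this rule are not reported here. Members and the 45 gene lists were chosen with earlier results of these data known. List levels per library are averages of log2 CPM over the members (prior count 2). An amygdala sham library has a column number that matches no title: its counts entered the region test by group, and its 2 normalised columns were not mapped or used. Levels are CPM over the genes tested, except marker levels and levels in other regions, which were scaled over all genes of each table and differ slightly. The libraries of a group differed by more than sampling noise, with a smallest chi-square per degree of freedom of 6.60 over 20 pairs, so none was treated as 1 library deposited more than once. This does not show that they are separate animals.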

Additional observations from a re-analysis of the deposited data

Results flagged for a closer look

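Within groups of 5 libraries, 8 of 150 groups examined had 1 library far from the others (gap over range above 0.71), and chance gives about 1 in 20, or 8. The choroid plexus level of sham Cer33 was 1.97 on the centred log2 scale, against -1.53 to -1.19 in the other sham libraries. The endothelium level of blast Cer666 was -0.046, against 0.053 to 0.088 in the other blast libraries. The molecular layer interneuron level of blast Cer8 was 0.067, against -0.048 to -0.017 in the other blast libraries. The neurodegeneration list stood at -0.089 in sham Cer14, against -0.005 to 0.027 in the other sham libraries. The myelin list stood at -0.077 in sham Cer11, against 0.018 to 0.044 in the other sham libraries. Mmp14 had 6.02 CPM in sham Cer15, against 9.34 to 10.7 CPM in the other sham libraries. Ikbke had 4.67 CPM in blast Cer666, against 3.29 to 3.42 CPM in the other blast libraries. B4galt6, the gene of lactosylceramide synthase, had 111 CPM in sham Cer33, against 125 to 128 CPM in the other sham libraries.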

How the results depend on the processing

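edgeR called 0 genes under the main settings, under every other scaling, filter and covariate tried, in the model of all 40 libraries and without sham Cer11 and sham Cer15. DESeq2 called 5, and leaving out each library in turn gave 0 to 1 calls: Hnrnpab without sham Cer33 and LOC103689978 without sham Cer14. Genes at an unadjusted p under 0.05 numbered 683, but 1048 with no filter on low counts (of 22831 genes) and 342 in the model of all 40 libraries. With the fibroblast and meninges level as a covariate the sign turned for C7 (-0.0347), Ptgds (-0.014), Igf2 (-0.26) and Rpl8 (0.17), and the cause was not tested. Of 1949 values of 93 named genes under 21 alternatives, 1940 kept their direction and side of the threshold, and of 765 list medians 754 moved by less than the spread between libraries. The region test called 0 genes under each alternative run. Most title numbers recur across regions, and the labels do not say whether they mark the same rats. The main region test did not pair the libraries. Of 29 same-number pairs across regions, 11 had a correlation over 0.1 (-0.13 to 0.25), and 20 lay above the mean of the other numbers. Each group was centred on its own mean, so that last count largely repeats the sign of the correlation and is not a separate comparison. These correlations do not settle whether libraries share a rat. With the number as a replicate block limma voom called 0 genes between regions, with 220 at an unadjusted p under 0.05 against 200 without the block. Low counts limit genes near 1 CPM, such as RT1-Db1.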

Other observations

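Other lists of neurons and metabolism had small medians. Genes of the cerebellar nuclei and brainstem were 8 of 12 lower in blast by a median of -0.07, with Nefm and Nefh at an unadjusted p under 0.05, and the median was 0.08 without blast Cer8, blast Cer22 and sham Cer33. Molecular layer interneuron genes were 10 of 14 lower by -0.04, with Sorcs3, a sorting receptor gene, averaging 36.8 CPM in blast and 41.1 CPM in sham (-0.16 ± 0.07). Golgi and unipolar brush cell genes were 8 of 14 lower by -0.02. Antioxidant and metal genes were 17 of 25 higher by 0.03, with the peroxiredoxin gene Prdx1 averaging 61.6 CPM in blast and 55.2 CPM in sham (0.16 ± 0.07).

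Hypoxia genes were 9 of 14 higher by 0.02, and Vegfa, the vascular growth factor gene, averaged 265 CPM in blast and 242 CPM in sham (0.13 ± 0.07), whereas Hif3a was the one member at an unadjusted p under 0.05. Reactive astrocyte genes were 9 of 16 higher by 0.04, p53 and DNA damage genes 12 of 17 by 0.02, and red blood cell genes 5 of 6 by 0.11, which was -0.04 without sham Cer11 and sham Cer15. Glycolysis genes were 10 of 18 lower by -0.01, and cholesterol synthesis genes were 11 of 22 higher by 0.00.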
